A study of Homo sapiens with 12 samples.

Results

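The 9 genes RRM1, RRM2, TYMS, TK1, DUT, DCK, DTYMK, CTPS1 and CAD encode enzymes that make deoxynucleotides and pyrimidine nucleotides. They were listed by gene symbol, and all 9 were found among 26475 entries of the count table and among the 15353 genes tested. RNA was measured in A375, an established human melanoma cell line, after 24 h of treatment, in 3 libraries per group. The groups were 1 µM XL413, an inhibitor of the kinase CDC7, 1 µM OF1, an inhibitor of BRPF1, BRPF2 and BRPF3, the 2 inhibitors together at 1 µM each, and the vehicle DMSO. All 12 libraries came from this single line, grown in the same serum-containing medium. The labels describe the 3 libraries as biological replicates and do not say whether they were separate cultures. The p-values therefore measure the spread between these libraries, which may be technical.

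Ribonucleotide reductase, built from the large subunit RRM1 and the small subunit RRM2, turns ribonucleotides into deoxyribonucleotides, and RRM2 is the subunit whose amount follows the cell cycle. Thymidine nucleotides reach DNA by synthesis from dUMP through TYMS or by salvage of thymidine through TK1, and both routes meet at DTYMK. DUT removes dUTP and so supplies dUMP while keeping uracil out of DNA, DCK salvages deoxycytidine, CAD opens pyrimidine synthesis and CTPS1 makes CTP from UTP. Proliferating cells raise many of these transcripts as they enter S phase, when CDC7 starts replication by phosphorylating the MCM helicase. BRPF proteins are bromodomain scaffolds of histone acetyltransferase complexes.

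The totals per library ran from 30499559 to 36062138 counts. Of 8 melanoma markers, SOX10 averaged 348 CPM (read counts scaled to library size with TMM factors, the trimmed mean of M values), ERBB3 200 CPM, AXL 418 CPM, MITF 38.7 CPM and S100B 22.8 CPM. The pigment genes TYR (0 in all 12 libraries), MLANA (mean 0.13 CPM) and PMEL (0.65 CPM) were at or near 0. Transcripts of skeletal muscle varied within groups. The summed level of 21 muscle markers ran over 163 to 333 CPM in XL413, 155 to 345 CPM in OF1, 37.9 to 126 CPM in the combination and 113 to 276 CPM in DMSO. The combination's replicates 2 and 3 had the 2 lowest sums.

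Changes in the 9 genes were small and differed in direction between genes. In 6 of 8 comparisons 1 or 2 of the 9 genes passed the threshold, an adjusted p under 0.05. Of all genes tested, 2.80% passed in XL413 against DMSO, 3.41% in the combination against XL413 and 5.50% against OF1. The share was 12% for the average XL413 effect and 4.94% for the average OF1 effect. It was 10.7% in the combination against DMSO, close to the 11.1% of the 9 genes there. The largest change over the 5 pairs of groups compared was the 1.22-fold rise of DUT in XL413 against DMSO. RRM2 fell with XL413, against DMSO and on average over cells with and without OF1, and TK1 rose with XL413 in cells that also had OF1 and on average. TYMS and CAD fell with OF1 on average over cells with and without XL413, TYMS also in the combination against XL413 and CAD in the combination against DMSO. RRM1, DCK, DTYMK and CTPS1 passed in no comparison.

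The promoter sequences of the 5 genes that passed in at least 1 comparison are printed here. Each is the RefSeq promoter on GRCh38.p14, from 250 bases before to 50 bases after the start used in that table, read 5′ to 3′ on the gene's own strand. Capitals mark CCAAT boxes, E2F type sites, the E-box CACGTG and the Sp1 type GGGCGG, on either strand. The windows are chr2:10122489-10122788 (plus strand) for RRM2, chr18:657403-657702 (plus) for TYMS, chr17:78187155-78187454 (minus) for TK1, chr15:48330845-48331144 (plus) for DUT and chr2:27217119-27217418 (plus) for CAD.
RRM2: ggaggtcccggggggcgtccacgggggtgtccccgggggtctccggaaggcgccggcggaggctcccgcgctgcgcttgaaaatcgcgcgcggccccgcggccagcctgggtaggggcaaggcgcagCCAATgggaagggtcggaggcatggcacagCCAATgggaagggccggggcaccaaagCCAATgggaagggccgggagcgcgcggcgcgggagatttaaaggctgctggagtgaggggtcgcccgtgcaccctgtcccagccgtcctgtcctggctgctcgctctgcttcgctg
TYMS: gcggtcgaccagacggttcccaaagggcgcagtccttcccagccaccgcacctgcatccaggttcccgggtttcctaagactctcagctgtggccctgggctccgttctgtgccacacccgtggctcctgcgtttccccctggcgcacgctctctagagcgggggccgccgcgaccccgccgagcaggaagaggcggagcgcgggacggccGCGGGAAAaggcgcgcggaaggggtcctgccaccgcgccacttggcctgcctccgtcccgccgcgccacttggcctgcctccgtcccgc
TK1: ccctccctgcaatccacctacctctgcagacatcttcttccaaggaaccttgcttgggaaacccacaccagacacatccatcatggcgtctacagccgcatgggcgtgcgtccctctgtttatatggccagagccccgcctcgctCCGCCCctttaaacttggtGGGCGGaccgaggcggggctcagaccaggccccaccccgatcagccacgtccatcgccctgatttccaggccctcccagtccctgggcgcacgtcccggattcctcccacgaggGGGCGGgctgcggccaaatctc
DUT: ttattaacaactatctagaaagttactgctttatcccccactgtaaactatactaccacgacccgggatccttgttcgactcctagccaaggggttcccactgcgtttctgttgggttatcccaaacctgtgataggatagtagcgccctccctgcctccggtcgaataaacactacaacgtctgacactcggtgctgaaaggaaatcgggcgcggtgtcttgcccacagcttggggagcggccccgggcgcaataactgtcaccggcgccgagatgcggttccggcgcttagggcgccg
CAD: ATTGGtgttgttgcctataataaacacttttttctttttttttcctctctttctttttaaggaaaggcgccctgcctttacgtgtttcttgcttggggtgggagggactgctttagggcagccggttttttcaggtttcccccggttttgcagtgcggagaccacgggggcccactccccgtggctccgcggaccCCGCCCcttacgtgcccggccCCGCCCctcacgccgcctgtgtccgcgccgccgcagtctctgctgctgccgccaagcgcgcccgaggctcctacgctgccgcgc
RRM2 holds 3 CCAAT boxes, beginning 123, 93 and 66 bases before the start. TYMS holds 1 E2F type site, TTTCCCGC read on the minus strand. TK1 holds 3 Sp1 type sites, CAD holds 2 and a CCAAT box at the edge of the window, and DUT holds none of the motifs searched.

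Over all 9 promoters, exact matches on either strand were counted for each motif and set beside all 35116 promoters of the same length in the RefSeq table. An E2F type site (TTTCCCGC, TTTCGCGC, TTTGCCGC or TTTGGCGC) lay in TYMS and DCK and in 3.31% of all promoters. CCAAT lay in RRM1, RRM2, DTYMK and CAD and in 34.6% of all, and GGGCGG in RRM1, TK1, DCK, DTYMK, CTPS1 and CAD and in 45.0% of all. The E-box CACGTG lay in DCK alone of the 9 (7.26% of all). TTTGAA, the only form of the cell cycle homology region searched, lay in RRM1 alone (15.2%). The ATF4 type TGATGNAA lay in none of the 9 (3.62% of all). A match is a description of letters in this window, and a missing match says only that these letters are not in it.

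Per kb of each gene's principal transcript, the levels in DMSO spanned a wide range. TYMS had 142 ± 1.83 CPM per kb (SD, n = 3), RRM2 134 ± 0.38, TK1 120 ± 3.34 and DTYMK 80.8 ± 1.46. CTPS1 had 65.6 ± 1.90, DUT 60.5 ± 3.49, RRM1 58.0 ± 0.50, CAD 34.4 ± 0.42 and DCK 12.5 ± 0.74 CPM per kb. CTPS1 and DUT, and DUT and RRM1, did not differ beyond their SDs, and the order rests on the transcript chosen for the length. Across the 12 libraries the highest CPM of a gene was 1.05 times its lowest for RRM1, 1.11 for RRM2, 1.13 for CTPS1 and 1.14 for CAD. It was 1.22 for DCK, 1.25 for TYMS and DTYMK, 1.37 for TK1 and 1.45 for DUT.

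**Figure D1:**
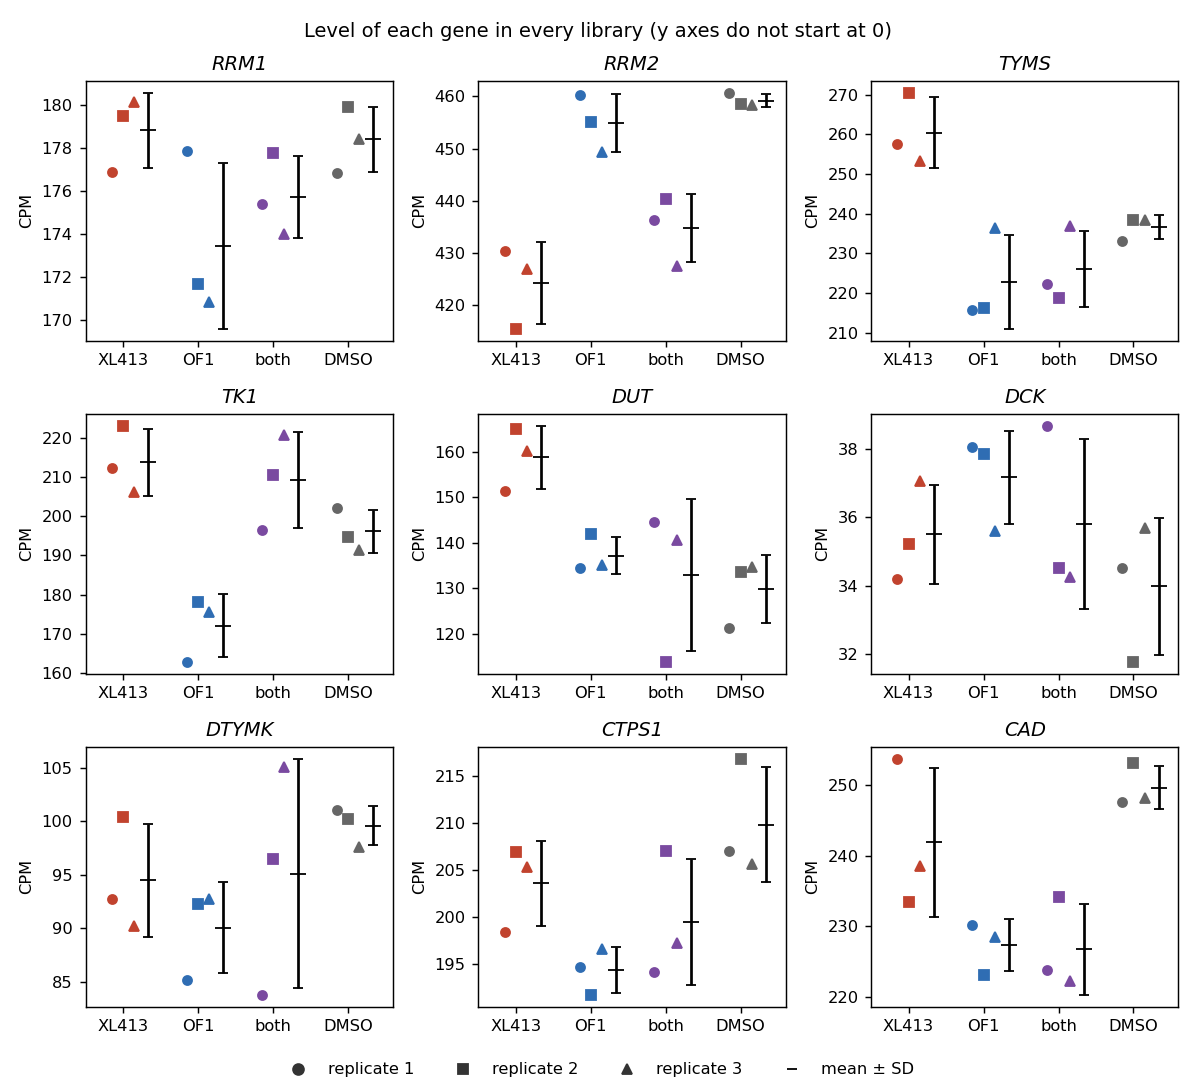
CPM of each of the 9 genes in every library, by treatment, with the mean and SD of 3 libraries beside the points; the y axes differ and do not start at 0. All 6 libraries with XL413 lie below all 6 without it for RRM2, and the DUT value of 114 CPM in combination replicate 2 lies below all other DUT values.

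RRM2 (chr2:10122568-10211010) was lower in every library that received XL413 than in every library that did not. Its level was 430, 416 and 427 CPM in XL413 replicates 1 to 3, against 461, 459 and 458 CPM in DMSO. It was 436, 440 and 428 CPM in the combination, against 460, 455 and 449 CPM in OF1. All 6 libraries with XL413 lay between 416 and 440 CPM and the 6 without it between 449 and 461 CPM, so the sets did not overlap. The share of all genes tested that separate in this way was not computed. The means were 424 ± 7.81 CPM in XL413, 455 ± 5.52 CPM in OF1, 435 ± 6.51 CPM in the combination and 459 ± 1.30 CPM in DMSO (SD, n = 3 each).

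In XL413 against DMSO, RRM2 fell by 7.59%, a log2 change of -0.11 ± 0.03 (SE; adjusted p = 0.0394 by the edgeR quasi-likelihood F test with Benjamini-Hochberg adjustment over all genes tested). Averaged over cells with and without OF1, XL413 went with a log2 change in RRM2 of -0.09 ± 0.02 (edgeR adjusted p = 0.00936). In the combination against OF1 alone it was -0.07 ± 0.03 and did not pass (adjusted p = 0.17), and the difference between the XL413 effects with and without OF1 was 0.05 ± 0.04 (adjusted p = 0.719). The average effect passed in 19 of 20 alternative fits and was lost only with the mean log2 level of the muscle markers (the muscle score) as a covariate (-0.10, adjusted p = 0.0518). The change against DMSO passed in 8 of the 20. Leaving out any DMSO or XL413 library ended it (edgeR adjusted p 0.054 to 0.169). So did leaving out OF1 replicate 2 (0.0594) or combination replicate 2 (0.056). It was also lost with the muscle score (0.0862), upper-quartile factors (0.0517), no filter (0.0692) and a block by replicate number (0.0555).

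RRM1 (chr11:4094685-4138932), the other subunit of the enzyme, differed little between libraries. It had 177, 179 and 180 CPM in XL413, 178, 172 and 171 CPM in OF1, 175, 178 and 174 CPM in the combination and 177, 180 and 178 CPM in DMSO. The groups overlapped in each comparison. Its log2 change was 0.00 ± 0.03 in XL413 against DMSO, with a 95% confidence interval of -0.06 to 0.07, and its smallest adjusted p over the 8 comparisons was 0.40.

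TK1 (chr17:78174079-78187204, minus strand), the thymidine kinase of the salvage route, had its lowest levels in OF1. It had 212, 223 and 206 CPM in XL413, 163, 178 and 175 CPM in OF1, 196, 210 and 221 CPM in the combination and 202, 195 and 191 CPM in DMSO. All 3 OF1 libraries were below all other 9, and the XL413 libraries were all above those of DMSO. The means were 214 ± 8.54 CPM in XL413, 172 ± 8.11 CPM in OF1, 209 ± 12.2 CPM in the combination and 196 ± 5.43 CPM in DMSO (SD, n = 3 each).

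In the combination against OF1, TK1 rose 1.22-fold, a log2 change of 0.28 ± 0.05 (edgeR adjusted p = 0.00508). XL413 against DMSO gave 0.12 ± 0.05, which did not pass (adjusted p = 0.165). The difference between these XL413 effects, tested as non-additivity, was 0.16 ± 0.07 and did not pass (adjusted p = 0.428). The average XL413 effect on TK1 was 0.20 ± 0.03 (edgeR adjusted p = 0.00176) and passed in all 20 alternative fits, at 0.16 to 0.22. In OF1 against DMSO the log2 change of TK1 was -0.19 ± 0.05 and did not pass (edgeR adjusted p = 0.0713), although DESeq2 gave an adjusted p of 0.00959 at the same size. The call in the combination against OF1 was lost with the muscle score as a covariate (0.26 ± 0.08, edgeR adjusted p = 0.577). There the SE grew from 0.05 to 0.08 while the change stayed close to 0.28. It was also lost with the combination represented by replicate 1 alone (0.19).

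TYMS (chr18:657653-673578), the thymidylate synthase, was highest in XL413 alone. It had 258, 270 and 253 CPM in XL413, 216, 216 and 236 CPM in OF1, 222, 219 and 237 CPM in the combination and 233, 238 and 238 CPM in DMSO. The XL413 libraries lay above the other 9, and those of OF1 and the combination reached into the range of DMSO through replicate 3. The means were 260 ± 8.96 CPM in XL413, 223 ± 11.8 CPM in OF1, 226 ± 9.56 CPM in the combination and 237 ± 3.05 CPM in DMSO (SD, n = 3 each).

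In the combination against XL413, TYMS fell by 13.2%, a log2 change of -0.20 ± 0.04 (edgeR adjusted p = 0.0154). Averaged over cells with and without XL413 the OF1 effect was -0.15 ± 0.03 (edgeR adjusted p = 0.011), which was lost only with the muscle score (0.0824). OF1 against DMSO gave -0.09 ± 0.04 (adjusted p = 0.369), and the difference between the OF1 effects with and without XL413 was -0.12 ± 0.06 (adjusted p = 0.519). XL413 against DMSO gave 0.14 ± 0.04, which did not pass (edgeR adjusted p = 0.0902) but did with DESeq2 (0.0375). The call against XL413 was lost without XL413 replicate 1 (edgeR adjusted p = 0.0514), XL413 replicate 2 (0.0824) or combination replicate 2 (0.085). It was also lost with the muscle score as a covariate (-0.15 ± 0.07, edgeR adjusted p = 0.844) and with combination replicate 1 alone (-0.23). TYMS shares 967 exonic bases with ENOSF1 on the other strand, its deposited count was whole in 1 of 12 libraries, and whether strand was used in counting is not given in the sources used here.

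DUT (chr15:48331095-48343373), the dUTPase, had the widest spread of the 9 genes. It had 151, 165 and 160 CPM in XL413, 134, 142 and 135 CPM in OF1, 144, 114 and 141 CPM in the combination and 121, 134 and 135 CPM in DMSO. The XL413 libraries lay above all others, and combination replicate 2 was the lowest of the 12. The means were 159 ± 6.90 CPM in XL413, 137 ± 4.06 CPM in OF1, 133 ± 16.7 CPM in the combination and 130 ± 7.50 CPM in DMSO (SD, n = 3 each).

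In XL413 against DMSO, DUT rose 1.22-fold, a log2 change of 0.29 ± 0.07 (edgeR adjusted p = 0.0411), which was the largest change of the 9 genes over the 5 pairs of groups compared. The combination against XL413 gave -0.26 ± 0.07 with no overlap of libraries and did not pass (edgeR adjusted p = 0.0622), while DESeq2 gave 0.01. That value was -0.16 without the low combination replicate 2 (adjusted p = 0.202), -0.14 with combination replicate 1 alone (0.284) and -0.08 with the muscle score (0.965). It passed without combination replicate 1 (-0.33, adjusted p = 0.0168) or 3 (-0.30, 0.0371) and with no filter (0.0204). The non-additivity of DUT was -0.34 ± 0.10 (edgeR adjusted p = 0.213), and it passed only without combination replicate 1 (-0.41, adjusted p = 0.0436). The rise against DMSO passed in 11 of 20 alternative fits. Leaving out any DMSO or XL413 library ended the call (edgeR adjusted p 0.0594 to 0.167). So did leaving out OF1 replicate 2 (0.0619), adding the muscle score (0.0731) and a block by replicate number (0.055). GENCODE release 29 lists 8 pseudogenes named for DUT and 3 for RRM2. None of these pseudogenes is an entry of the count table. The deposited counts of both genes were whole in all 12 libraries, which therefore does not show that no reads came from such copies. Reads shared with such copies were not analysed here.

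CAD (chr2:27217369-27243943), the enzyme that opens pyrimidine synthesis, was lower in all 6 libraries with OF1 than in DMSO. It had 254, 233 and 239 CPM in XL413, 230, 223 and 229 CPM in OF1, 224, 234 and 222 CPM in the combination and 248, 253 and 248 CPM in DMSO. The XL413 libraries spread from below 1 combination library to above all of DMSO. The means were 242 ± 10.5 CPM in XL413, 227 ± 3.68 CPM in OF1, 227 ± 6.46 CPM in the combination and 250 ± 3.08 CPM in DMSO (SD, n = 3 each).

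In the combination against DMSO, CAD fell by 9.16%, a log2 change of -0.14 ± 0.04 (edgeR adjusted p = 0.022). OF1 against DMSO gave the same rounded value of -0.14 ± 0.04 and did not pass (edgeR adjusted p = 0.0852), while DESeq2 gave 0.0229. The average OF1 effect was -0.11 ± 0.02 (edgeR adjusted p = 0.0165). The change in the combination against DMSO was lost without DMSO replicate 2 (edgeR adjusted p = 0.0956) or 3 (0.0639). It was also lost with the muscle score as a covariate (-0.15 ± 0.05, edgeR adjusted p = 0.162) and with combination replicate 1 alone (-0.16). The average OF1 effect was lost without DMSO replicate 2 (0.0566) or OF1 replicate 2 (0.0571) and with the muscle score (0.0632).

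DTYMK (chr2:241675747-241686815, minus strand), the thymidylate kinase, had both the lowest and the highest of its 12 values inside the combination group. It had 92.8, 100 and 90.2 CPM in XL413, 85.1, 92.3 and 92.7 CPM in OF1, 83.8, 96.5 and 105 CPM in the combination and 101, 100 and 97.6 CPM in DMSO. The OF1 libraries were all below those of DMSO, at a log2 change of -0.15 ± 0.07 that did not pass (edgeR adjusted p = 0.329). With combination replicate 1 alone, the combination against DMSO passed at -0.25 (adjusted p = 0.0321), against -0.07 with all 3 replicates (adjusted p = 0.578).

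CTPS1 (chr1:40979696-41012565), the CTP synthase, had 198, 207 and 205 CPM in XL413, 195, 192 and 197 CPM in OF1, 194, 207 and 197 CPM in the combination and 207, 217 and 206 CPM in DMSO. The OF1 libraries were all below those of DMSO, with a log2 change of -0.11 ± 0.03 that did not pass (edgeR adjusted p = 0.144). DCK (chr4:70993649-71030914), the deoxycytidine kinase and the least abundant of the 9, had 34.2, 35.2 and 37.1 CPM in XL413, 38.1, 37.8 and 35.6 CPM in OF1, 38.7, 34.5 and 34.2 CPM in the combination and 34.5, 31.8 and 35.7 CPM in DMSO. Its groups overlapped in every comparison. Its log2 change was between 0.06 and 0.13 in the 3 comparisons against DMSO, and the interval was 0.01 to 0.25 for OF1, where the adjusted p was 0.322. DCK shares 199 exonic bases with MOB1B on the same strand. RRM2 shares 1077 with the protein-coding AC007240.1 on the same strand. DUT shares 533 with AC023355.1 and RRM1 63 with RRM1-AS1, both on the other strand. AC007240.1, AC023355.1 and RRM1-AS1 are not entries of the count table.

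**Figure D2:**
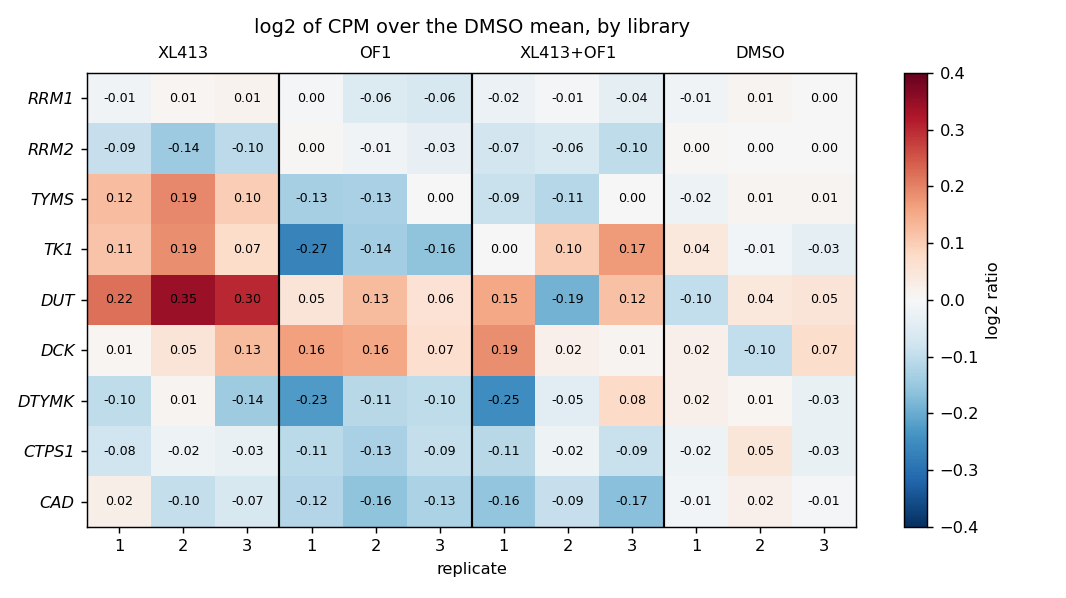
Each cell is the log2 ratio of a library's CPM to the mean of the 3 DMSO libraries, for the 9 genes (rows) in the 12 libraries (columns, by treatment and replicate number). DUT is highest in the 3 XL413 columns at 0.22 to 0.35, and TK1 is lowest in the 3 OF1 columns at -0.14 to -0.27.

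Counted over the list, XL413 against DMSO had 2 of 9 genes (22.2%) past the threshold, 1 risen (DUT) and 1 fallen (RRM2), beside 2.80% of all genes tested. TK1 and TYMS also had all XL413 libraries above all DMSO libraries, so 4 of 9 genes had no overlap, beside 27.8% of all genes. OF1 against DMSO had 0 of 9 past the threshold in edgeR, beside 1.15% of all genes. At an unadjusted p under 0.05 there were 5 of 9, beside 14.4% of all genes (2209 of 15353). DESeq2 called 2 of 9, where it called 357 of all genes, and limma-voom 0 of 9. TK1, DTYMK, CTPS1 and CAD lay entirely below DMSO in OF1, which makes 4 of 9 without overlap beside 22.1% of all genes. The median log2 change of the 9 genes in OF1 was -0.09, with 2 above 0. Summed keratinocyte markers, of which 2 of the 5 tested fell in OF1 against DMSO, ran over 30.1 to 32.2 CPM in OF1 and 38.5 to 39.8 CPM in DMSO, with TP63 and DSG3 at or near 0, and their part was not tested. The comparisons against DMSO share the DMSO libraries.

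The combination against DMSO had 1 of 9 (11.1%), CAD, close to the 10.7% of all genes, and RRM2 was lower in all libraries at -0.08 ± 0.03 without passing (edgeR adjusted p = 0.0796). The combination against XL413 had 1 of 9, TYMS, beside 3.41% of all genes. The combination against OF1 had 1 of 9, TK1, beside 5.50% of all genes. In the combination against OF1, 21 of 21 muscle markers were tested and 18 fell, and 7 of 10 fibroblast markers fell. Of the muscle markers 5 fell against DMSO and 14 against XL413, and of the fibroblast markers 6 and 5. Summed fibroblast markers ran over 236 to 280 CPM in XL413, 257 to 286 CPM in OF1, 59.8 to 160 CPM in the combination and 216 to 271 CPM in DMSO, and none of the muscle or fibroblast markers was at 0 in any library. Of the 5 keratinocyte markers tested, 3 fell in the combination against DMSO (KRT5, KRT14 and SFN), 1 against XL413 and 0 against OF1, and their sum ran over 27.5 to 31.8 CPM in the combination, against 36.2 to 37.1 CPM in XL413 and 38.5 to 39.8 CPM in DMSO. The part of these markers in the CAD, TYMS and TK1 results was not tested beyond the fits with the muscle score and with combination replicate 1 alone. The score ran from -0.40 to 1.52 in the combination, below every OF1 library (lowest 2.04) and every XL413 library (lowest 1.97). It ran from 1.42 to 2.89 in DMSO. A fit with the score therefore cannot separate it from treatment in the combination against OF1 or against XL413. Each average effect includes 1 of these comparisons, so the limit holds in part for the average effects too. In bulk RNA, fewer cells of a type and less RNA per cell cannot be told apart.

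The average XL413 effect had 2 of 9 (22.2%), RRM2 and TK1, beside 12% of all genes (1845 of 15353). The average OF1 effect had 2 of 9, both fallen (TYMS and CAD), beside 4.94% of all genes. The median log2 change of the 9 was 0.00 for XL413 and -0.07 for OF1, where the medians over all genes tested were 0.00 for each. Non-additivity had 0 of 9 in edgeR, DESeq2 and limma-voom, beside 0.00% of all genes in edgeR, and 2 of 9 at an unadjusted p under 0.05, beside 10.2% of all genes. Over all genes, edgeR called 0 departures from additivity, with 1566 at an unadjusted p under 0.05, while DESeq2 called 109 and limma-voom 0.

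**Figure D3:**
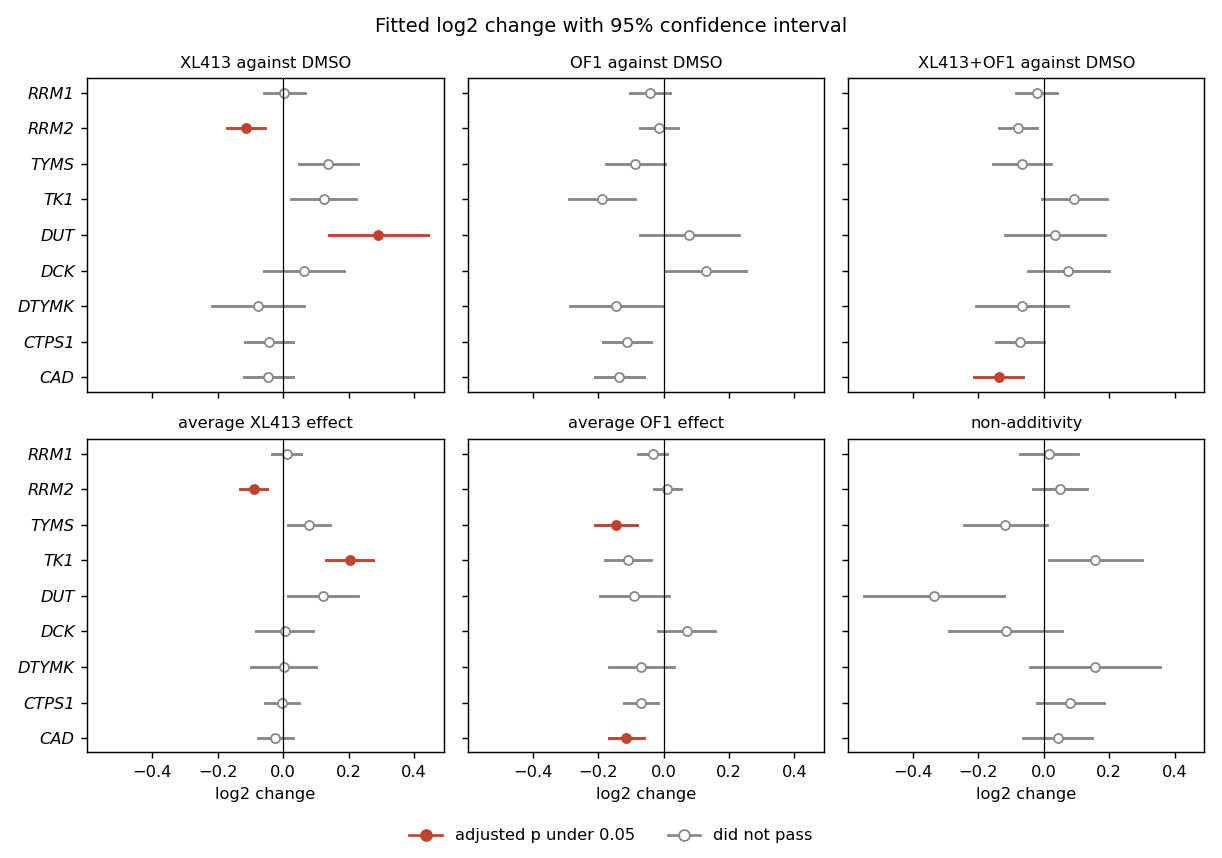
Fitted log2 change of the 9 genes in 6 comparisons, with 95% confidence intervals; filled points passed the adjusted p threshold of 0.05. RRM2 is left of 0 in XL413 against DMSO and in the average XL413 effect, and TYMS and CAD are left of 0 in the average OF1 effect.

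Of 28 other genes of deoxynucleotide and pyrimidine metabolism, 1 rose and 2 fell in the average XL413 effect (10.7%, beside 12% of all genes). DPYD, which starts pyrimidine breakdown, changed by 0.14 ± 0.03 (edgeR adjusted p = 0.00968), NT5C, a deoxynucleotidase, by -0.19 ± 0.05 (0.0392), and UPRT by -0.17 ± 0.05 (0.0482). In the average OF1 effect 1 of the 28 rose, the uridine phosphorylase UPP1 at 0.22 ± 0.05 (edgeR adjusted p = 0.0111), and none fell (3.57%, beside 4.94% of all genes). Of 18 purine genes, 2 rose and 1 fell with XL413 (16.7%), with ADK at 0.15 ± 0.03, IMPDH2 at 0.10 ± 0.03 and PRPS2 at -0.10 ± 0.03. With OF1 none of the purine genes rose and 2 fell (11.1%), the salvage enzyme HPRT1 at -0.12 ± 0.02 and IMPDH1 at -0.12 ± 0.03. With the muscle score 0 of the 28 and 0 of the 18 passed for XL413, and for OF1 0 of the 28 and 1 of the 18, HPRT1. Without combination replicate 1, 10 of the 28 (6 risen, 4 fallen) and 5 of the 18 passed for XL413. The count of 3 of the 28 became 1, risen, without DMSO replicate 3, OF1 replicate 2, combination replicate 2 or any XL413 library, and that of the 18 became 1 without DMSO replicate 3 and with combination replicate 1 alone. The call of UPRT was lost in 14 of the 20 alternative fits (adjusted p 0.0515 to 0.222), DESeq2 and limma-voom included, and that of NT5C in 9 (0.0503 to 0.285). Those of PRPS2 (5 of 20, up to 0.137), IMPDH2 (3 of 20, up to 0.175) and IMPDH1 (5 of 20, up to 0.0754) were lost in fewer. Leaving out 1 library ended the call of UPRT for DMSO replicates 1 and 3, every XL413 library, OF1 replicates 1 and 2 and combination replicate 2. It ended that of NT5C for DMSO replicates 2 and 3, every XL413 library, OF1 replicates 2 and 3 and combination replicate 2. PRPS2 was lost without DMSO replicate 3, XL413 replicate 2 or OF1 replicate 1, and IMPDH2 without DMSO replicate 3. IMPDH1 was lost without DMSO replicate 1 or 2, XL413 replicate 2 or OF1 replicate 2, and HPRT1 was lost in none.

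The folate and serine enzymes supply the one-carbon unit that TYMS transfers. With OF1, 7 of 16 such genes (43.8%) rose on average and none fell, beside 4.94% of all genes. The 3 of smallest p were the serine synthesis enzymes PSAT1 at 0.50 ± 0.02 and PHGDH at 0.38 ± 0.03 and the mitochondrial folate enzyme MTHFD2 at 0.30 ± 0.02, and the largest change was that of ALDH1L2 at 0.55 ± 0.05 (edgeR adjusted p = 5.96e-06), named after its value was seen. PSAT1 averaged 512 ± 5.73 CPM in OF1 and 536 ± 1.79 CPM in the combination, against 352 ± 7.14 CPM in XL413 and 389 ± 2.83 CPM in DMSO (SD, n = 3 each). PSAT1, PHGDH and MTHFD2 passed in all 20 alternative fits.

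Among 26 genes expressed in S phase, 10 rose and 1 fell in the average XL413 effect (42.3%, beside 12% of all genes). MCM3 was at 0.33 ± 0.02, MCM4 at 0.14 ± 0.02 and the cyclin CCNE2 at -0.24 ± 0.03. Of 20 genes of G2 and mitosis, 10 rose and 3 fell (65%), with the mitotic kinase CDK1 at 0.46 ± 0.02, HMMR at 0.60 ± 0.03 and UBE2C at 0.55 ± 0.03. TK1 changed in the direction of most of the listed genes that passed and RRM2 in the other. With the muscle score 4 of the 26 rose and 1 fell, and all 6 genes named here kept their call in all 20 alternative fits. In the average OF1 effect 1 of the 26 fell (3.85%, beside 4.94% of all genes), MCM2 at -0.08 ± 0.02. Of the 20, 2 fell (10%), AURKA at -0.09 ± 0.02 and PLK1 at -0.10 ± 0.02, and none of either list rose. The call of MCM2 was lost in 13 of the 20 alternative fits (adjusted p 0.0502 to 0.118), among them no filter, the muscle score and the fits without any DMSO, XL413 or OF1 library or combination replicate 2. That of PLK1 was lost in 8 (0.0623 to 0.0821), with the muscle score and without any DMSO library, XL413 replicate 1 or 2 or OF1 replicate 1 or 2, and that of AURKA with the muscle score (0.0581).

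**Figure D4:**
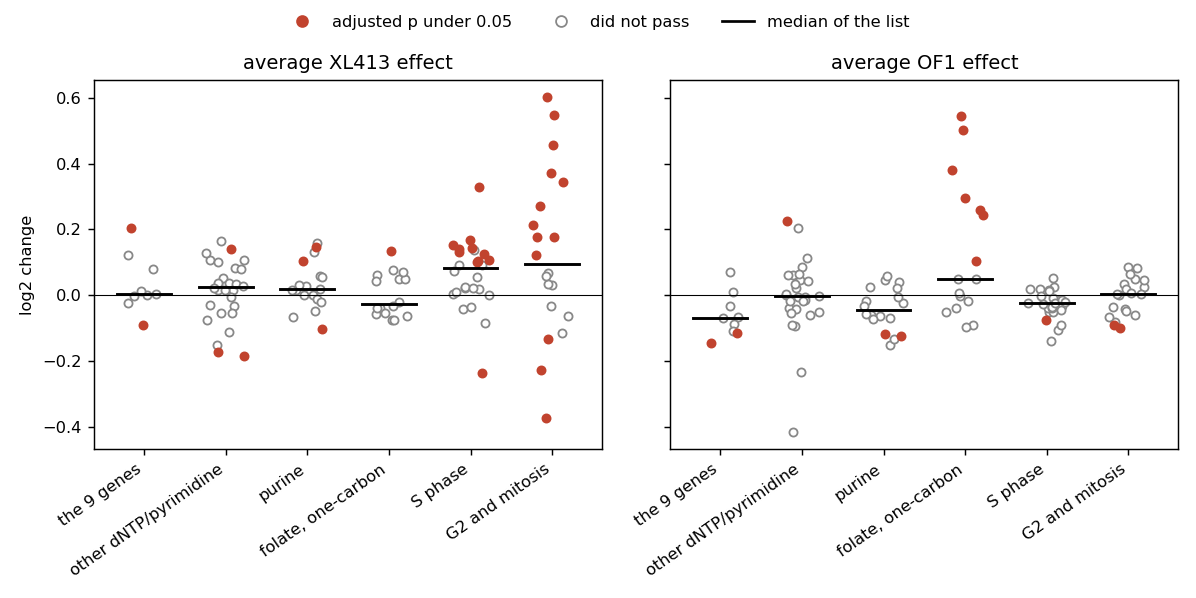
Log2 change of every tested gene of 6 lists in the average XL413 effect and the average OF1 effect, 1 point per gene, with a bar at the list's median; filled points passed the adjusted p threshold of 0.05. With XL413 the filled points of the G2 and mitosis list reach 0.60, and with OF1 those of the folate list reach 0.55.

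As a description over the 12 libraries, RRM2 and TK1 ran opposite to each other (Pearson r = -0.74), as did RRM2 and DUT (-0.66) and RRM2 and TYMS (-0.64). TYMS and DUT ran together (0.67), as did RRM1 and CTPS1 (0.73) and CTPS1 and CAD (0.70), while DCK ran opposite to DTYMK (-0.78) and CTPS1 (-0.73). These values pool groups that differ in treatment and share library depth and scaling.

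Of 9705 other genes whose log2 CPM averaged 3 or more, those most like RRM2 over the 12 libraries were AXL (r = 0.98), SET (0.97) and HK2 (0.96). AXL, a receptor kinase, averaged 365 ± 17.7 CPM in XL413, 445 ± 19.9 CPM in OF1, 387 ± 18.4 CPM in the combination and 473 ± 8.54 CPM in DMSO (SD, n = 3 each). Of the melanoma markers tested, AXL and MITF fell with XL413 on average, in all 20 alternative fits. MITF also fell with OF1, a call lost in 11 of the 20 (adjusted p 0.0508 to 0.104), with the muscle score, with combination replicate 1 alone and without any DMSO library, XL413 replicate 1 or 3, OF1 replicate 2 or 3 or combination replicate 2 or 3. Those most like TK1 were CDC20 (0.97), an activator of the anaphase-promoting complex, NUCB1 (0.96) and CPNE1 (0.95). DTYMK was closest to MPDU1 (0.98), CAD to MYO18A (0.96), TYMS to MTCH1 (0.95), and DUT (NFKBIA), DCK (EYA4), RRM1 (ZSWIM4) and CTPS1 (ZNF791) each to a gene at 0.91. Each is the highest of 9705 values and is given without a test.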

How the data were processed

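Poly(A) RNA from 12 libraries of A375 cells was sequenced with strand-keeping libraries, per the labels' protocols. The authors deposited a table of expected counts by gene symbol, estimates that were not scaled between libraries. The submitters' processing notes name Bowtie2 2.1.0, RSEM 1.2.15 and hg38, without an annotation or a strand setting. Of these expected counts 10.6% were not whole, and all were rounded.

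edgeR 4.0.16 in R 4.3.3 kept 15353 genes with filterByExpr, applied TMM factors and fitted 1 mean per group to all 12 libraries (8 residual degrees of freedom, common biological coefficient of variation 0.049). The quasi-likelihood F test was used with Benjamini-Hochberg adjusted p under 0.05, and the SE was the absolute log2 change over the root of F. Compared were, in 8 contrasts, each treatment against DMSO, the combination against each inhibitor, each inhibitor's average effect with and without the other, and non-additivity, the combination's log2 change minus the sum of the single ones. The script was tested on simulated data. The 20 alternatives were DESeq2 1.42.0, limma-voom (limma 3.58.1), RLE or upper-quartile factors, no filter, a replicate block, the mean log2 level of 21 muscle markers (the muscle score) as a covariate, the combination by replicate 1 alone, and each of 12 libraries left out. Where the combination is represented by replicate 1 alone, that library is assumed to vary like the rest.

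The 9 genes, the other lists and the tests were chosen with earlier results of these data known. Beside the 9 genes, up to 3 genes per list of smallest p past the threshold in each average effect are named, and the 3 non-members of highest r per member were sought. The result of 1 gene that this rule picks is not reported here. Promoters are from RefSeq (GRCh38.p14), matched by symbol for 9 of 9 genes, and shared exonic bases and transcript lengths from GENCODE release 29. Within groups no pair of libraries agreed within counting noise (chi-square per degree of freedom 2.32 to 13.6).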

Additional observations from a re-analysis of the deposited data

How the results depend on the processing

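No called value of the 9 genes or of the other genes tried reversed direction under the 20 alternatives. Over the 9 genes and 8 comparisons 1380 values kept their side of the threshold, 37 lost it and 23 gained it, and over the other named genes 708 kept it and 152 lost it. Counts of the 9 genes moved as follows. In XL413 against DMSO the 2 calls became 1 with upper-quartile factors, 1 with no filter, 0 with the replicate block and 0 with the muscle score. In OF1 against DMSO 0 became 2 with DESeq2 and 1 with no filter, where 357 and 186 of all genes were called. With the muscle score the counts were 0 for the combination against DMSO, against XL413 and against OF1, 1 for the average XL413 effect and 0 for the average OF1 effect. With combination replicate 1 alone they were 0 against XL413, 0 against OF1 and 4 for the average OF1 effect, and in the combination against XL413 DESeq2 and no filter gave 2 each. Leaving out each library in turn gave 0 to 3 for XL413 against DMSO, 0 to 1 for OF1 against DMSO, 0 to 1 for the combination against DMSO, 0 to 2 against XL413, 1 to 1 against OF1, 2 to 3 for the average XL413 effect, 1 to 3 for the average OF1 effect and 0 to 1 for non-additivity. Counts over all genes fell with the muscle score to 190 of 430 for XL413 against DMSO, 68 of 176 for OF1 against DMSO, 289 of 1645 for the combination against DMSO, 33 of 524 against XL413, 9 of 845 against OF1, 495 of 1845 for the average XL413 effect and 311 of 759 for the average OF1 effect. In that same order, without the last, they were 848, 414, 857, 155, 53 and 951 with combination replicate 1 alone. DESeq2 called 357 genes in OF1 against DMSO, and for non-additivity (0 called by edgeR) there were 109 with DESeq2, 132 with no filter, 2 with the replicate block and 1 with combination replicate 1 alone. Leaving out each library gave 86 to 722 for XL413 against DMSO, 42 to 388 for OF1 against DMSO, 728 to 2113 for the combination against DMSO, 168 to 828 against XL413, 212 to 2227 against OF1, 1050 to 2903 for the average XL413 effect, 412 to 1117 for the average OF1 effect and 0 to 362 for non-additivity. The lowest of these came without XL413 replicate 2 (86, 1050), DMSO replicate 2 (42, 728, 412), combination replicate 2 (168, 212) or XL413 replicate 1 (412). The cause of these moves was not tested. Over 18 same-number pairs of libraries the correlation of deviations ran from -0.16 to 0.20, and 1 was over 0.1. Over 36 pairs of other numbers it ran from -0.20 to 0.18, and 4 were over 0.1. Pairing by replicate number was thus not seen, but with 3 libraries per group these correlations cannot exclude it. The replicate block put RRM2 at an edgeR adjusted p of 0.0555 and DUT at 0.055 in XL413 against DMSO. It ended no other call of the 9 genes. With 3 libraries per group, changes of a few percent in the 9 genes lay near the limit of what the spread between libraries could resolve.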

Other observations

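Factors known to act on transcription of nucleotide synthesis genes, together with the targets of the inhibitors, formed a list of 19 genes chosen with earlier results of these data known. In the average XL413 effect 1 rose and 2 fell (15.8%, near the 12% of all genes). RBL1, a pocket protein that restrains E2F targets, rose by 0.23 ± 0.03 on the log2 scale (edgeR adjusted p = 0.000522), while MYC changed by -0.21 ± 0.04 (0.00481) and BRPF1 by -0.11 ± 0.03 (0.0312). RBL1 averaged 54.5 ± 2.01 CPM in XL413 and 61.3 ± 2.56 CPM in the combination, against 51.4 ± 1.65 CPM in OF1 and 47.5 ± 1.25 CPM in DMSO (SD, n = 3 each). MYC averaged 20.4 ± 1.49 CPM in XL413 and 21.3 ± 0.51 CPM in the combination, against 23.7 ± 1.02 CPM in OF1 and 24.5 ± 0.22 CPM in DMSO. In the average OF1 effect 2 of the 19 rose and none fell (10.5%, beside 4.94% of all genes). The 2 were ATF4 at 0.22 ± 0.03 (edgeR adjusted p = 0.00033) and RBL1 at 0.14 ± 0.03 (0.017). The calls of MYC and ATF4, and that of RBL1 with XL413, held in all 20 alternative fits. The edgeR call of BRPF1 was lost with the muscle score (adjusted p = 0.174), with replicate 1 alone standing for the combination (0.133), and without DMSO replicate 2 (0.0795), DMSO replicate 3 (0.0524), XL413 replicate 3 (0.0784), OF1 replicate 1 (0.0714) or combination replicate 2 (0.0806). The edgeR call of RBL1 with OF1 was lost with the muscle score (adjusted p = 0.0857) and without replicate 2 of DMSO (0.0578), XL413 (0.054), OF1 (0.0522) or the combination (0.0508). ATF4, a factor that drives serine synthesis genes, averaged 376 ± 11.2 CPM in OF1 and 388 ± 24.3 CPM in the combination, against 312 ± 4.30 CPM in XL413 and 344 ± 7.43 CPM in DMSO. CDC7, the target of XL413, had a log2 change of -0.02 ± 0.04 in the average XL413 effect and did not pass (edgeR adjusted p = 0.732). Its RNA level says nothing of the activity of the kinase that the compound inhibits.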
